A study of Mus musculus with 8 samples.

Results

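Genes of the NRF2 oxidative stress response, 10 in number, were followed in the small intestine of irradiated mice: Nfe2l2, Nqo1, Hmox1, Gclc, Gclm, Slc7a11, Gsr, Gpx2, Txnrd1 and Srxn1. They were taken as the 12 probes, of 39429 on the array, whose gene name in the array files is one of these 10 symbols. Of the 10 genes, 9 were measured, among 21806 genes in all. Slc7a11 had 1 probe and it was not well above background on any of the 8 arrays. No measured gene of the 10 passed the test in any of 5 comparisons, and the text below gives what each one did and how large a change the arrays leave possible.

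The mice were female BALB/cA Jcl animals aged 8 weeks. Each received saline, FGF1 (fibroblast growth factor 1) or FGF1/CPP-C, a chimeric protein made from FGF1, into the peritoneum, with 12 h of pretreatment before irradiation with carbon ions, a beam of heavy charged particles used against tumours. Tissue was taken 4 h after exposure. The 4 groups were unirradiated saline (0 Gy) and, after 8 Gy, saline, FGF1 or FGF1/CPP-C, with 2 one-colour Agilent arrays each. No group received either protein without irradiation. The design text names the jejunum, while the sample labels say small intestine. Nothing in the labels tells if both arrays of a group come from separate animals, so the p-values reflect only how far these samples spread, which may be technical.

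NRF2, encoded by Nfe2l2, is a transcription factor that KEAP1 marks for degradation in unstressed cells. Oxidants and electrophiles release it from KEAP1. It then enters the nucleus, pairs with a small MAF protein and binds antioxidant response elements. Its targets make and recycle glutathione, keep thioredoxin reduced, break down heme and detoxify quinones. In the gut these enzymes are known for handling reactive compounds from food and microbes, and ionising radiation is a further source of reactive oxygen species.

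The core of the antioxidant response element, TGACNNNGC, was searched on both strands in RefSeq promoter windows of GRCm38.p6, which run from 250 bases before to 50 bases after an annotated start. Windows were held for 7 of the 10 genes, 9 windows in all, because Txnrd1 has 3. The core was present in 4 of the 9 windows, those of Nfe2l2, Srxn1 and Gclm and 1 window of Txnrd1, and in 12.4% of all 32851 windows of this length. The 4 matches are shown because they fit the core of the element through which the factor is known to read its targets. Binding at these sites was not tested. Each is written 5′ to 3′ along the strand of the gene, with the core in capitals.
Nfe2l2: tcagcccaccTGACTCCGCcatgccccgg
Srxn1: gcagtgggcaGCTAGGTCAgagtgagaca
Gclm: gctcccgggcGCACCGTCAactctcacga
Txnrd1: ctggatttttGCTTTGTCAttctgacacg
The Nfe2l2 stretch lies at chr2:75704885-75704913 on the minus strand, and its core begins 240 bases before the start. The Srxn1 stretch lies at chr2:152105542-152105570 on the plus strand, with the core on the opposite strand 28 bases after the start. The Gclm stretch lies at chr3:122245413-122245441 on the plus strand, with the core on the opposite strand 134 bases before the start. The Txnrd1 stretch lies at chr10:82859104-82859132 on the plus strand, with the core on the opposite strand 92 bases before the start. In the windows of Nqo1, Gpx2 and Slc7a11 these letters did not occur, and sequence outside the windows was not searched.

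Levels are given as normalised log2 signal, the log2 of the processed signal minus the 75th percentile of the same array, so that 0 is the brightness of a probe at that percentile and 1 unit is a 2-fold difference. A level compares 1 probe across arrays and not 1 gene with another. The percentile itself lay between 1734.7 and 2165.2 intensity units, and 68.25% to 72.52% of spots were well above background. A gene passed a comparison when limma's adjusted p, by Benjamini-Hochberg over all genes, was under 0.05. The irradiation labels were checked with 6 p53 targets. All 6 were higher in 8 Gy saline than in 0 Gy saline, and 5 of them passed. In the mean of the 3 irradiated groups against 0 Gy saline all 6 were higher and passed. The 8 Gy saline call of 1 of the 5, Mdm2, ended with the slide as a block (limma, adjusted p = 0.054). It also ended with the series matrix (limma, adjusted p = 0.0636) and without a filter on dim probes (limma, adjusted p = 0.101). Leaving out any 1 of the 8 arrays ended it too. All 5 calls ended without either 0 Gy array, with the 2 groups fitted alone and without the 3 arrays described next. The calls for the mean also ended without those 3 arrays.

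The tissue label was checked too. The 10 markers of absorptive enterocytes had a median level between 6.15 and 7.02 on every array, with at least 9 of them well above background. Markers of stomach antrum, which jejunum should lack, stood at a median of 3.81 on the second 8 Gy saline array, 2.72 on the first 0 Gy saline array and 2.44 on the first FGF1 array, and between -5.52 and -1.57 on the other 5 arrays. The median does not speak for every marker. Tff2 and Gkn3 read 7.18 to 8.99 on all 6 arrays outside FGF1/CPP-C. On the FGF1/CPP-C arrays Tff2 read -6.02 and -6.74 and Gkn3 -1.66 and -1.82. Gkn2 read only -5.13 on 8 Gy saline replicate 1, -5.30 on 0 Gy saline replicate 2 and -6.06 on FGF1 replicate 2. On these arrays Tff2 and Gkn3 thus did not follow Gkn2, and the gut region they came from was not tested. Markers of pancreatic acinar cells had the highest median, 5.63, on the first 0 Gy saline array, with the second 8 Gy saline array next. Results below are therefore also given without the 3 arrays with a high antrum median where the value moves, which does not remove the difference in Tff2 and Gkn3.

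**Figure D1:**
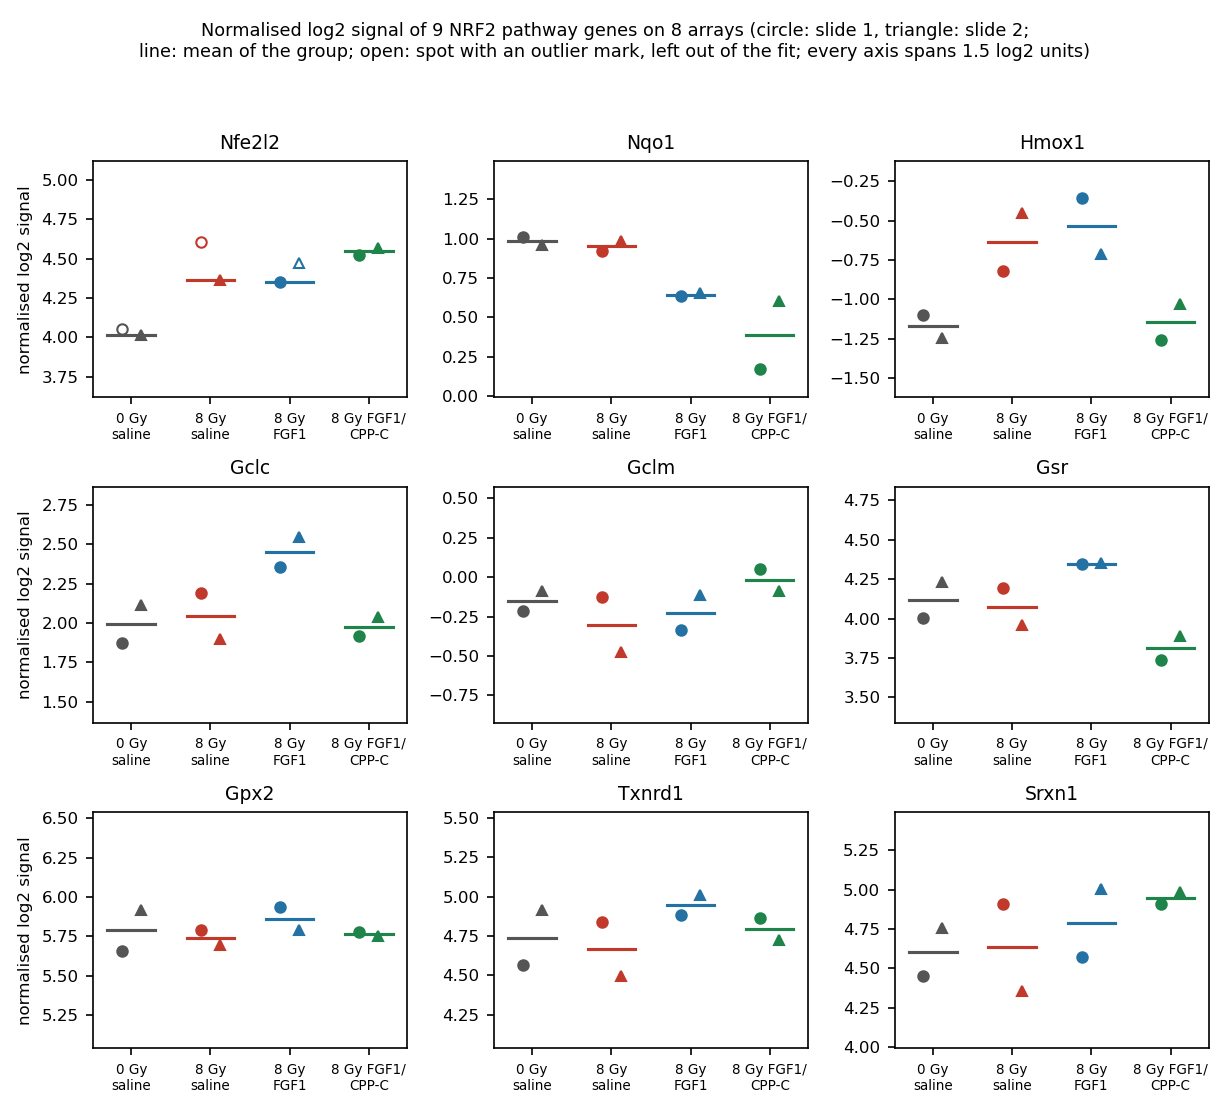
Normalised log2 signal (vertical axis) of the 9 measured genes on each of the 8 arrays, by group (horizontal axis). Circles are slide 1, triangles slide 2, lines group means, and open symbols spots with an outlier mark. Nqo1 lies between 0.92 and 1.01 on the 4 saline arrays and between 0.17 and 0.65 on the 4 growth factor arrays, while Gpx2 spans only 0.28 units over all 8.

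Nfe2l2 itself read lower in the unirradiated gut than in the irradiated groups, but the reading is incomplete. Its probe lies at chr2:75513771-75513830 on the minus strand (mm9, the build of the array's own coordinates). The spot carried an outlier mark on 3 of the 8 arrays and was left out there. Of the arrays left, 0 Gy saline read 4.01, 8 Gy saline 4.37, FGF1 4.35, and FGF1/CPP-C 4.53 and 4.57. The 0 Gy value lay below the 4 irradiated ones, and the irradiated groups were close together.

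Irradiated groups averaged 0.41 ± 0.13 log2 units (SE) above 0 Gy saline for Nfe2l2, with limma's adjusted p at 0.248, so the gene did not pass, and the 95% interval ran from -0.01 to 0.82. With the marked spots kept, which was tried only once the marks had been found, 0 Gy saline read 4.05 and 4.01, 8 Gy saline 4.61 and 4.37, FGF1 4.35 and 4.47, and FGF1/CPP-C 4.53 and 4.57. Both 0 Gy arrays then lay below all 6 irradiated arrays. The difference was 0.45 and limma's adjusted p 0.0707, the smallest that any of the 10 genes reached under any setting. Since 3 of the 8 spots rest on a mark, the difference is given as a value and not as a call.

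Nqo1 encodes NAD(P)H quinone dehydrogenase 1, which reduces quinones to hydroquinones, and is a widely used readout of NRF2. Its probe lies at chr8:109912440-109912499 on the minus strand (mm9). The levels were 1.01 and 0.96 in 0 Gy saline, 0.92 and 0.99 in 8 Gy saline, 0.63 and 0.65 in FGF1, and 0.17 and 0.61 in FGF1/CPP-C. All 4 saline arrays lay above all 4 arrays with either protein, and 8 Gy saline differed from 0 Gy saline by -0.03 ± 0.15 (SE), with the 95% interval from -0.40 to 0.34. Markers of mesenteric adipocytes split the arrays in the same way. Their median was -4.69 and -5.48 in 0 Gy saline and -2.79 and -3.71 in 8 Gy saline, against -6.48 to -6.08 on the 4 arrays with either protein. Of the 6 markers, 4 were lower on every growth factor array than on every saline array, while Fabp4 and Lep overlapped. The 4 included Cfd, at -6.74 to -3.75 against -2.75 to 0.36. The others, Adipoq, Plin1 and Retn, were well above background on only 3, 3 and 4 of the 8 arrays. On the growth factor arrays they read at or near -6.74, the lowest value allowed. Part of that split is thus between detected and undetected signal. Single markers of other cell types split the arrays too. On all growth factor arrays 3 of 9 macrophage markers were higher than on all saline arrays. So was 1 of the 9 enterocyte markers with every value. Of 6 smooth muscle markers, 2 were lower. The part of these transcripts in the Nqo1 values was not tested.

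In FGF1/CPP-C against 8 Gy saline, Nqo1 was 0.57 ± 0.15 log2 units lower, a 1.48-fold difference, with the 95% interval from -0.94 to -0.20. It did not pass, at limma's adjusted p of 0.337 and an unadjusted p of 0.0096. The difference was -0.75 on slide 1 and -0.38 on slide 2, and -0.53 without the 3 arrays with a high antrum median, but -0.35 without FGF1/CPP-C replicate 1. In FGF1 against 8 Gy saline it was 0.31 ± 0.15 lower, with nearly the same value on both slides, -0.29 and -0.34. FGF1/CPP-C and FGF1 differed by -0.26 ± 0.15, with the interval from -0.63 to 0.12, and by -0.04 without FGF1/CPP-C replicate 1, which stood apart from the other growth factor arrays. The saline groups, which overlapped, had the highest means. The order of FGF1 above FGF1/CPP-C rests on that 1 array.

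Cell type markers that moved with the FGF1/CPP-C group stand beside every comparison that uses it. The antrum median was lowest on its 2 arrays, at -4.52 and -5.52, with 8 and 6 of 10 markers well above background, and 5 of the 10 were lower there than on all other arrays. The enterocyte median was highest there, at 7.02 and 6.87, with 7 of 10 markers above all other arrays. The Paneth cell median was highest too, at 3.58 and 3.63 against 2.56 to 3.22, with 4 of 5 markers above. The smooth muscle median was lowest, at 4.22 and 4.12 against 4.36 to 4.79, with 5 of 6 markers below. Crypt markers did not move together. Olfm4 and Ascl2 were lowest on the FGF1/CPP-C arrays, Lgr5 was highest, at -2.67 and -2.71 against -3.66 to -3.01, and Mki67, at 1.97 and 2.16, was above the other irradiated groups, at 1.67 to 1.87. Of 9 macrophage markers, 3 were above and 2 below all other arrays on the FGF1/CPP-C arrays. In whole tissue, fewer cells of a type and less RNA per cell cannot be told apart. The part of these cell types in the differences of FGF1/CPP-C was not tested.

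Hmox1 encodes heme oxygenase 1, which opens heme to biliverdin, iron and carbon monoxide, and is induced by NRF2 and repressed by BACH1. Its brighter probe, at chr8:77624207-77624266 on the plus strand (mm9), read -1.10 and -1.25 in 0 Gy saline, -0.82 and -0.45 in 8 Gy saline, -0.36 and -0.71 in FGF1, and -1.26 and -1.03 in FGF1/CPP-C. The 4 arrays of 8 Gy saline and FGF1 lay above the other 4. The 0 Gy saline and FGF1/CPP-C arrays overlapped, as did 8 Gy saline and FGF1.

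By that probe, Hmox1 was 0.54 ± 0.19 log2 units higher in 8 Gy saline than in 0 Gy saline, with limma's adjusted p at 0.332. It was 0.51 ± 0.19 lower in FGF1/CPP-C than in 8 Gy saline (limma, adjusted p = 0.393). It was 0.61 ± 0.19 lower in FGF1/CPP-C than in FGF1 (limma, adjusted p = 0.437), with an interval from -1.06 to -0.16. None of the 3 passed, although their 95% intervals lie on 1 side of 0. Without the 3 arrays with a high antrum median the values were 0.42, -0.32 and -0.43, and without 8 Gy saline replicate 2 the first was 0.35. Macrophages, a known source of heme oxygenase 1, had marker medians between -0.19 and 0.22 on all arrays, and lowest on the second 8 Gy saline array. Single markers did move. On the FGF1/CPP-C arrays Itgam, at 3.46 and 3.48, and Mrc1, at -1.99 and -2.23, were below all other arrays, while 3 of the 9 markers were above. The part of macrophages in the Hmox1 values was not tested.

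The other Hmox1 probe gave a different picture. It is shown because the reading of Hmox1 turns on which probe is used. This 60-base probe has a GC content of 55.0% and no stop codon in 1 of its 3 forward reading frames, and it lies upstream of the first at chr8:77620797-77620856 on the plus strand (mm9).
Hmox1 probe A_55_P2029687: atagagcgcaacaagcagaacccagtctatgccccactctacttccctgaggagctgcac
It read -1.48, -1.56, -1.57 and -1.39 on slide 1 and -2.62, -2.77, -2.46 and -2.85 on slide 2, with the groups in the same order as before. Every array of slide 2 was lower than every array of slide 1, by 1.18 units on average, while the brighter probe differed by 0.02 between the slides. Its difference of 8 Gy saline from 0 Gy saline was -0.11 ± 0.69 (SE), with an interval of -1.81 to 1.58. The fit had no term for the slide, so this spread holds the shift between the slides. On both slides this probe read lower in 8 Gy saline than in 0 Gy saline. The brighter probe read higher there, by 0.28 on slide 1 and 0.80 on slide 2. With the mean of both probes the 3 Hmox1 differences above became 0.21, -0.23 and -0.36.

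**Figure D2:**
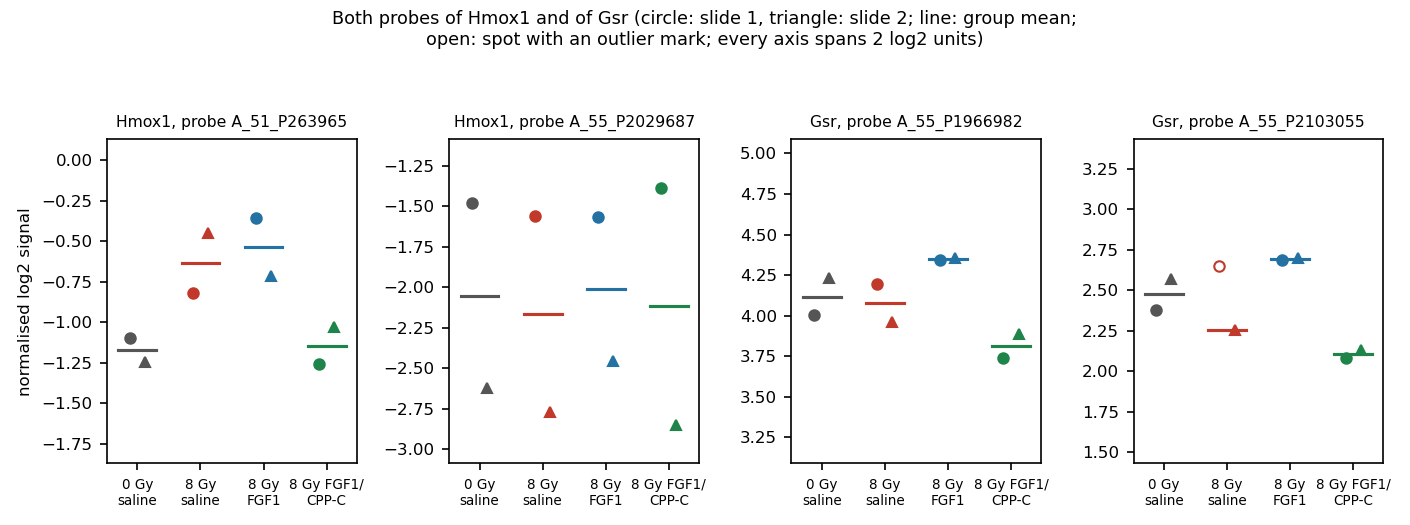
Normalised log2 signal (vertical axis) of both probes of Hmox1 and of Gsr by group (horizontal axis), with circles for slide 1, triangles for slide 2 and lines for group means. The weaker Hmox1 probe separates the slides, at a mean of -1.50 against -2.68, whereas both Gsr probes put FGF1 highest and FGF1/CPP-C lowest.

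Glutathione synthesis starts with glutamate-cysteine ligase, whose catalytic subunit is Gclc and whose modifier subunit is Gclm. Gclc, with its probe at chr9:77641296-77641355 on the plus strand (mm9), read 1.87 and 2.12 in 0 Gy saline, 2.19 and 1.90 in 8 Gy saline, 2.36 and 2.54 in FGF1, and 1.92 and 2.04 in FGF1/CPP-C. Both FGF1 arrays were above the other 6, which overlapped. Gclc was 0.41 ± 0.15 log2 units higher in FGF1 than in 8 Gy saline, a 1.33-fold difference with limma's adjusted p at 1, and 0.26 higher without 8 Gy saline replicate 2. It was 0.48 ± 0.15 lower in FGF1/CPP-C than in FGF1, with limma's adjusted p at 0.451 and slide values of -0.44 and -0.51. Neither passed.

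Gclm, the modifier subunit, had another order of groups. It read -0.22 and -0.09 in 0 Gy saline, -0.13 and -0.48 in 8 Gy saline, -0.34 and -0.11 in FGF1, and 0.05 and -0.09 in FGF1/CPP-C. FGF1/CPP-C was highest on average, by 0.28 ± 0.15 over 8 Gy saline (limma, adjusted p = 0.479). That value was 0.11 without 8 Gy saline replicate 2 or without the 3 arrays with a high antrum median, and 0.46 without 8 Gy saline replicate 1. All 4 group means lay within 0.28 units.

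Slc7a11, the cystine carrier that supplies cysteine for glutathione, was at the detection limit. Its probe at chr3:50169700-50169759 on the minus strand (mm9) gave processed signals of 1.6 and -6.0 in 0 Gy saline, 4.0 and 21.8 in 8 Gy saline, 15.5 and 0.3 in FGF1, and -1.5 and 8.8 in FGF1/CPP-C. None of these is well above background, and no fold change is given. Its partner Slc3a2, the heavy chain of the carrier, was measured and was 0.49 ± 0.19 log2 units higher in FGF1/CPP-C than in 8 Gy saline (limma, adjusted p = 0.413), which did not pass. The value was 0.24 without 8 Gy saline replicate 2 or without the 3 arrays with a high antrum median, and 0.74 without 8 Gy saline replicate 1.

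Gsr encodes glutathione reductase, which returns oxidised glutathione to its reduced form. The brighter of its 2 probes, at chr8:34808488-34808547 on the plus strand (mm9), read 4.00 and 4.23 in 0 Gy saline, 4.19 and 3.96 in 8 Gy saline, 4.34 and 4.35 in FGF1, and 3.74 and 3.89 in FGF1/CPP-C. FGF1 was highest, FGF1/CPP-C lowest, and neither overlapped with any other group. FGF1/CPP-C was 0.54 ± 0.13 log2 units below FGF1, a 1.45-fold difference, with the 95% interval from -0.86 to -0.22. Limma's adjusted p was 0.335, so it did not pass. The slides gave -0.61 and -0.47, and the value was -0.54 without the 3 arrays with a high antrum median.

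The weaker Gsr probe, a little further upstream at chr8:34808413-34808472, read 2.38 and 2.57 in 0 Gy saline, 2.26 in the 1 usable array of 8 Gy saline, 2.69 and 2.70 in FGF1, and 2.08 and 2.13 in FGF1/CPP-C. Its difference between FGF1/CPP-C and FGF1 was -0.59 ± 0.11 (limma, adjusted p = 0.274). The 2 probes thus gave the same order of the highest and the lowest group for Gsr, unlike the probes of Hmox1.

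Gpx2 encodes the glutathione peroxidase of the gut epithelium, which reduces hydroperoxides with glutathione. Its probe at chr12:77893402-77893461 on the minus strand (mm9) read 5.66 and 5.92 in 0 Gy saline, 5.79 and 5.69 in 8 Gy saline, 5.94 and 5.79 in FGF1, and 5.78 and 5.75 in FGF1/CPP-C. It was the steadiest of the 9 genes, with a range of 0.28 over the 8 arrays. The mean of the irradiated groups differed from 0 Gy saline by 0.00 ± 0.10 units, with the interval from -0.24 to 0.24, or 0.845-fold to 1.18-fold.

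Txnrd1, thioredoxin reductase 1, keeps cytosolic thioredoxin reduced, and Srxn1, sulfiredoxin 1, restores over-oxidised peroxiredoxins. Txnrd1, probed at chr10:82360230-82360289 on the plus strand (mm9), read 4.57 and 4.91 in 0 Gy saline, 4.84 and 4.49 in 8 Gy saline, 4.88 and 5.01 in FGF1, and 4.87 and 4.72 in FGF1/CPP-C. The 4 groups overlapped except that FGF1 lay above 8 Gy saline and above FGF1/CPP-C. Srxn1, probed at chr2:151937009-151937068 on the plus strand (mm9), read 4.45 and 4.76 in 0 Gy saline, 4.91 and 4.36 in 8 Gy saline, 4.57 and 5.00 in FGF1, and 4.91 and 4.98 in FGF1/CPP-C. The 2 arrays of 8 Gy saline were 0.55 units apart for Srxn1, more than the 0.34 units between the highest and the lowest group mean. The spread between arrays was thus larger than any group difference of Srxn1.

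**Figure D3:**
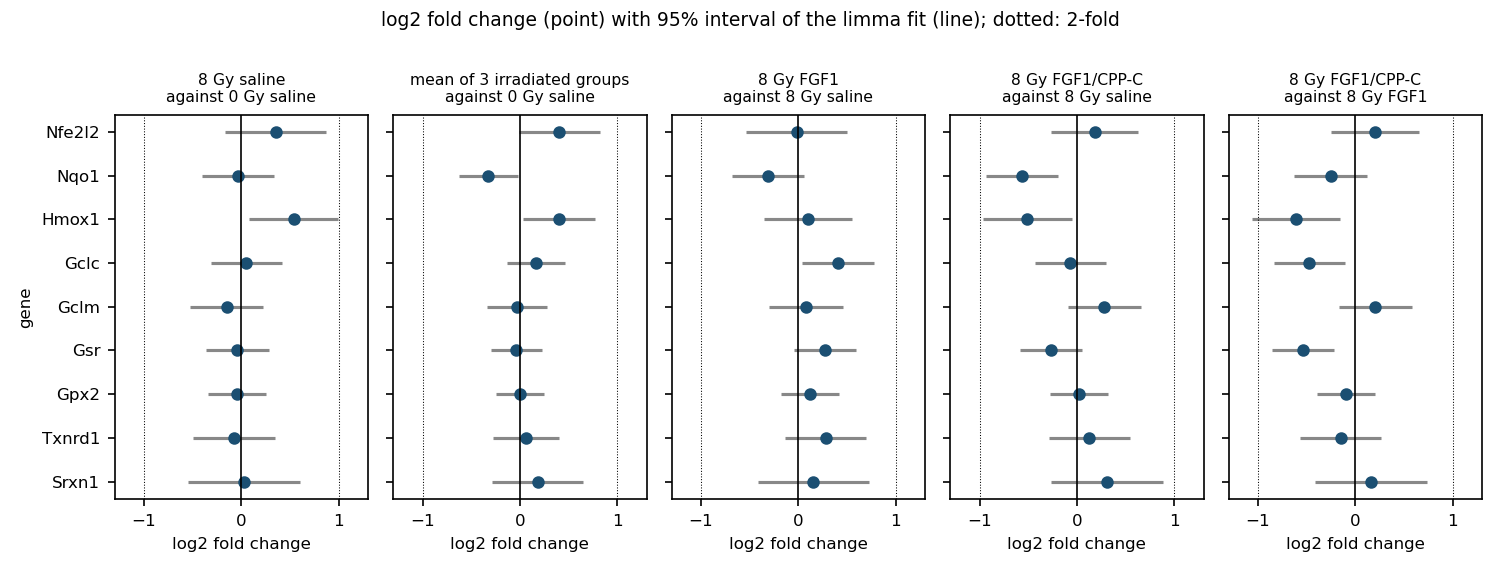
The log2 fold change (horizontal axis) of the 9 measured genes in each of the 5 comparisons, with the 95% interval of the limma fit, where dotted lines mark 2-fold. Each gene is shown by its brightest probe. All but 1 of these 45 intervals lie within 2-fold, the exception being Hmox1 in FGF1/CPP-C against FGF1, at -1.06 to -0.16.

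Read by comparison, none of these genes passed after carbon ions alone. In 8 Gy saline against 0 Gy saline 0 of 9 passed, where limma called 0.423% of all 21774 genes tested. One of the 9, Hmox1, had an unadjusted p under 0.05, as had 12.3% of all genes. Among the 8 genes with a value on every array, which leaves out Nfe2l2, the groups did not overlap for 1, Hmox1, against 38.4% of all genes with every value. The median log2 fold change of the 9 was -0.03 and that of all genes -0.05. For the mean of the 3 irradiated groups 0 of 9 passed against 2.4% of 21771 genes, 2 of 9 had an unadjusted p under 0.05 against 20.6%, the groups did not overlap for 0 of 8 against 22.8%, and the medians were 0.06 and -0.04. Those 2 were Hmox1, at 0.40 ± 0.15, and Nqo1, at -0.32 ± 0.12.

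In FGF1 against 8 Gy saline 0 of 9 passed, and limma called 0% of 21784 genes. One of the 9, Gclc, had an unadjusted p under 0.05, as had 1.75% of all genes. The groups did not overlap for 5 of 8, with Gclc, Gsr, Txnrd1 and Gpx2 higher and Nqo1 lower, against 18.9% of genes. The median of the 9 was 0.12 and that of all genes 0.01.

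In FGF1/CPP-C against 8 Gy saline 0 of 9 passed, beside 0.00918% of 21783 genes. Nqo1 and Hmox1, both lower, had an unadjusted p under 0.05, as had 11.9% of all genes. The groups did not overlap for 5 of 8, with Gclm and Srxn1 higher and Gsr, Hmox1 and Nqo1 lower, against 44.4% of genes. Srxn1 was barely apart, with its lowest FGF1/CPP-C array at 4.9079 and its highest 8 Gy saline array at 4.907. Its value of 0.31 became 0.04 without the 3 arrays with a high antrum median. The medians were 0.02 for the 9 and 0.04 for all genes.

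In FGF1/CPP-C against FGF1 0 of 9 passed, beside 0.00918% of 21797 genes. Gsr, Hmox1 and Gclc, all lower, had an unadjusted p under 0.05, beside 9.02% of all genes. The groups did not overlap for 7 of 8, all but Srxn1, and for 45.5% of genes. The medians were -0.15 for the 9 and 0.02 for all genes. The 3 comparisons of irradiated groups share arrays, as do both comparisons with 0 Gy saline, so their values are not independent of each other.

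The size of change left possible was read from the intervals of the fit, which reflect only the spread of these arrays. With the brightest probe of each gene, the 95% interval lay within 2-fold in 44 of the 45 combinations of gene and comparison. The weaker Hmox1 probe had an interval beyond 2-fold in every comparison, such as -1.81 to 1.58 in 8 Gy saline against 0 Gy saline. That fit had no term for the slide and counted the shift of this probe between the slides as spread. Nfe2l2 rests on 1 array in each group but FGF1/CPP-C. Over all genes that share was 81.2% in 8 Gy saline against 0 Gy saline, 85.7% for the mean of the irradiated groups, 86.9% in FGF1 against 8 Gy saline, 80% in FGF1/CPP-C against 8 Gy saline and 82.4% in FGF1/CPP-C against FGF1. With 2 arrays a group, an exact permutation test of a single gene cannot go below 0.333.

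Beyond the 10 genes, 87 further genes of the pathway were measured, in 8 lists: regulators and partners of NRF2, other glutathione genes, thioredoxin and peroxiredoxin genes, glutathione transferases, other detoxification targets, NADPH supply, iron and heme handling, and superoxide dismutases with catalase. In 8 Gy saline against 0 Gy saline 1 of the 87 passed, beside 0.423% of all genes, and for the mean of the irradiated groups 2 passed, beside 2.4%, all higher. In the 3 comparisons among irradiated groups 0 passed. At an unadjusted p under 0.05 there were 6 of 87 in 8 Gy saline against 0 Gy saline, beside 12.3% of all genes, and 14 for the mean of the irradiated groups, beside 20.6%. There were 7 in FGF1 against 8 Gy saline (1.75%), 14 in FGF1/CPP-C against 8 Gy saline (11.9%) and 9 in FGF1/CPP-C against FGF1 (9.02%).

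Sesn2 was the gene that passed in both. It encodes sestrin 2, a stress-induced protein that is known as a target of p53, ATF4 and NRF2 and that restrains growth signalling. It read -0.21 and -0.05 in 0 Gy saline, 1.07 and 1.49 in 8 Gy saline, 1.34 and 1.13 in FGF1, and 1.13 and 1.20 in FGF1/CPP-C. Every irradiated array lay above both 0 Gy arrays, and the irradiated groups overlapped. The rise was 1.41 ± 0.16 log2 units in 8 Gy saline (limma, adjusted p = 0.0408) and 1.36 ± 0.13 for the mean of the irradiated groups (limma, adjusted p = 0.013).

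The 8 Gy saline call of Sesn2 ended with the slide as a block, at limma's adjusted p of 0.0675, with the series matrix (0.0608), without a filter on dim probes (0.103) and with the 2 groups fitted alone (0.346). It also ended without any 1 array other than 8 Gy saline replicate 1, at adjusted p-values from 0.108 to 0.215. For the mean of the irradiated groups, the adjusted p was 0.127 without 0 Gy saline replicate 1, 0.107 without 0 Gy saline replicate 2, 0.0538 without FGF1 replicate 1, and 0.0529 and 0.0548 without FGF1/CPP-C replicates 1 and 2. Without the 3 arrays with a high antrum median the values of Sesn2 were 1.13 (limma, adjusted p = 0.494) and 1.18 (0.279), and no gene at all passed in that smaller fit.

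Ephx1, microsomal epoxide hydrolase, which opens reactive epoxides, read 3.89 and 3.96 in 0 Gy saline, 4.88 and 5.24 in 8 Gy saline, 4.74 and 4.98 in FGF1, and 4.41 and 4.77 in FGF1/CPP-C. Every irradiated array lay above both 0 Gy arrays here too. The rise was 0.91 ± 0.15 for the mean of the irradiated groups (limma, adjusted p = 0.0452), and 1.14 ± 0.18 in 8 Gy saline, which did not pass (limma, adjusted p = 0.095). The call for the mean held without either array of 8 Gy saline alone, at adjusted p-values of 0.046 and 0.0499. It ended without any other single array, at 0.0874 to 0.281, with the series matrix (0.0512), without a filter (0.0878) and with the mean of its probes (0.0557), and the value was 0.85 without the 3 arrays with a high antrum median (0.296).

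The other lists gave no call. Among the regulators, Bach2, a repressor that competes for the same elements and is best known from lymphocytes, had the smallest p in 4 of the 5 comparisons. Its level was -4.63 and -4.69 in 0 Gy saline, -4.09 and -4.35 in 8 Gy saline, -4.23 and -4.14 in FGF1, and -3.37 and -2.86 in FGF1/CPP-C. FGF1/CPP-C was 1.10 ± 0.19 log2 units above 8 Gy saline (limma, adjusted p = 0.202) and the mean of the irradiated groups 0.82 ± 0.15 above 0 Gy saline (limma, adjusted p = 0.0568). The latter was 0.48 with the normexp background. It passed with probes well above background on all arrays (limma, adjusted p = 0.0485). With the mean of its probes it fell to 0.55 and passed (limma, adjusted p = 0.0494). The processed signal of the Bach2 probe used was low, between 67.3 and 276 on the 8 arrays. Of the other glutathione genes, Ggct, gamma-glutamylcyclotransferase, came nearest, at 0.68 ± 0.12 above 0 Gy saline over the irradiated groups (limma, adjusted p = 0.0526), and passed under 4 of the alternatives, at 0.0338 to 0.0451.

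Glutathione transferases and NADPH enzymes held some of the larger uncalled differences between FGF1/CPP-C and 8 Gy saline. Gsta3, an alpha-class transferase that conjugates electrophiles with glutathione, read 1.73 and 2.02 in 8 Gy saline, 1.32 and 0.84 in FGF1, and -0.19 and 0.48 in FGF1/CPP-C, against 1.61 and 1.76 in 0 Gy saline. The 3 irradiated groups did not overlap, and FGF1/CPP-C was lowest. It was 1.73 ± 0.27 log2 units below 8 Gy saline (limma, adjusted p = 0.183). Me1, malic enzyme 1, which makes NADPH, was 0.69 ± 0.12 lower (limma, adjusted p = 0.202), and Abcc3, an export pump for conjugates, was 0.67 ± 0.16 lower (limma, adjusted p = 0.307). None of these passed. Of the 17 measured transferases 9 had a negative and 8 a positive value in that comparison, and their median of -0.04 stood beside 0.04 for all genes. In FGF1 against 8 Gy saline 14 were negative and 3 positive, with a median of -0.12 beside 0.01 for all genes. There 5 of the 17, all lower, had an unadjusted p under 0.05, beside 1.75% of all genes, and 0 passed.

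**Figure D4:**
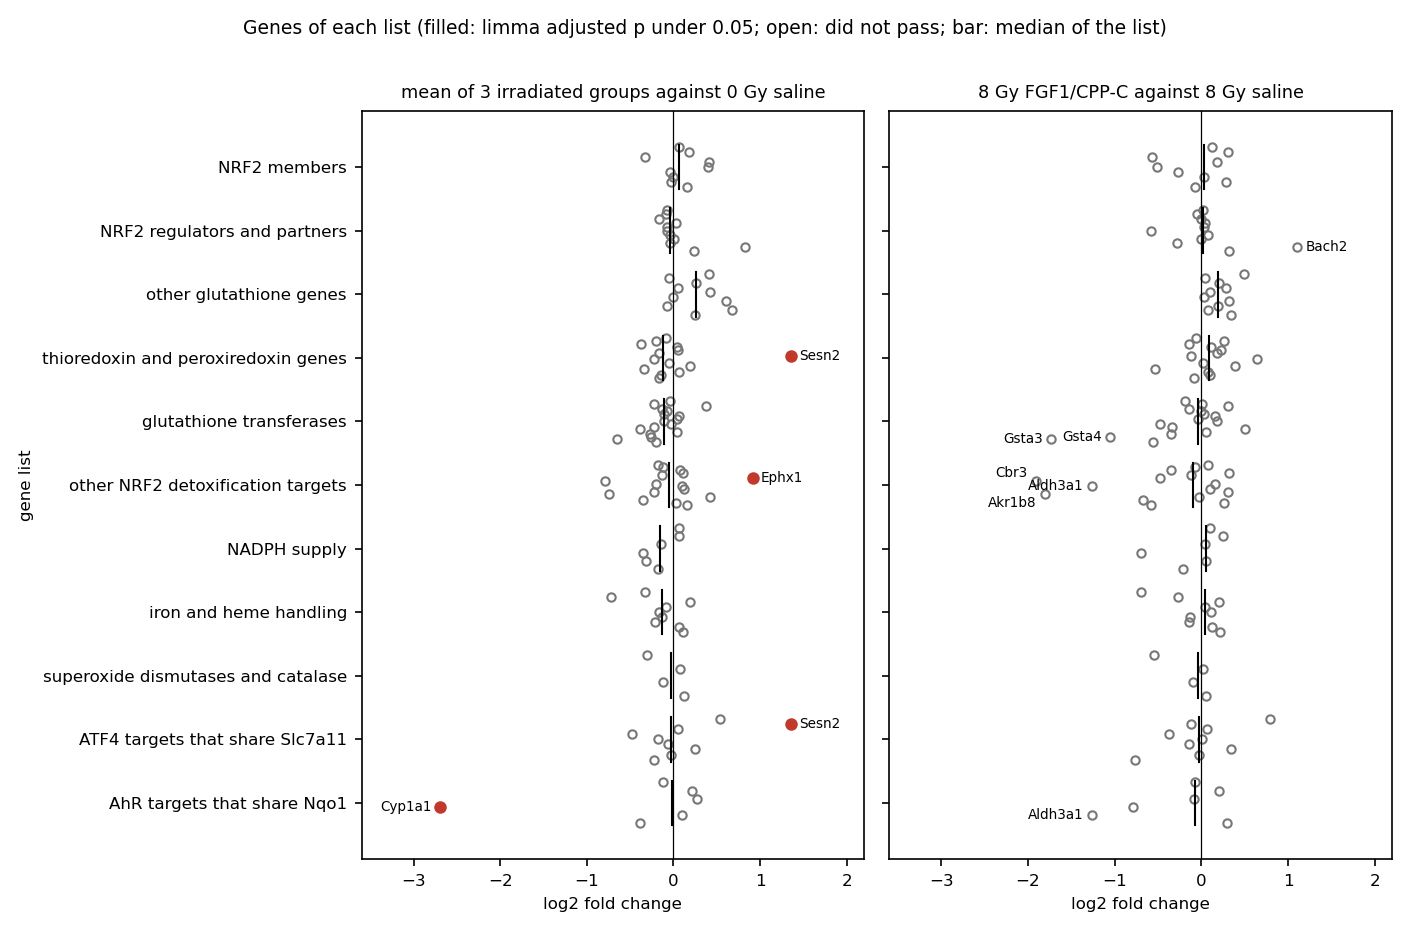
The log2 fold change (horizontal axis) of every measured gene of the 10 genes' list and of 10 related lists (vertical axis), for irradiated against 0 Gy saline (mean of the 3 groups, left) and FGF1/CPP-C compared with 8 Gy saline (right). Filled points passed and bars are list medians. Sesn2, which stands in 2 lists, Ephx1 and Cyp1a1 passed on the left and no gene on the right. Labels were added after the values were seen, for genes that passed or had a value over 1 in size.

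Because Nqo1 is also a target of the aryl hydrocarbon receptor and Slc7a11 of ATF4, lists for those factors were set beside them. Cyp1a1, the classical target of the aryl hydrocarbon receptor, read -0.31 and -0.07 in 0 Gy saline, -2.68 and -2.36 in 8 Gy saline, -2.92 and -2.74 in FGF1, and -3.11 and -3.50 in FGF1/CPP-C. It fell by 2.33 ± 0.19 log2 units in 8 Gy saline (limma, adjusted p = 0.0175), where Nqo1 differed by -0.03. It fell by 2.70 ± 0.15 for the mean of the irradiated groups (limma, adjusted p = 0.00322). The mean of both growth factor groups was set against 8 Gy saline after values were seen. There Cyp1a1 was 0.55 ± 0.16 log2 units lower and Nqo1 0.44 ± 0.13 lower, and neither passed (limma, adjusted p = 0.816 for both). Of the other list genes, Ahrr, Cyp1b1 and Tiparp had positive values there, and Aldh3a1 and Ugt1a6a negative ones. The part of the receptor in Nqo1 was not tested.

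The 8 Gy saline call of Cyp1a1 held without either FGF1/CPP-C array, at limma's adjusted p of 0.0463 for each, and ended without any other single array, at 0.0589 to 0.155. The call for the mean ended without 0 Gy saline replicate 2 (limma, adjusted p = 0.0666). The 8 Gy saline call also ended without a filter (0.0625) and with the 2 groups fitted alone (0.189). Without the 3 arrays with a high antrum median both calls of Cyp1a1 ended, at values of -2.60 (limma, adjusted p = 0.494) and -2.83 (0.279). Cyp1a1 was the only one of the 6 measured genes of its list to pass, and Sesn2 the only one of the 9 genes in the ATF4 list. Neither list had a call in the comparisons among irradiated groups.

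Pairs of these genes correlated in both directions across the arrays. Among the 8 genes with a value on every array there are 28 pairs, with Pearson's r between -0.81 and 0.85 and a median of 0.23. The closest pair was Gclc and Gsr, with r = 0.85 (permutation p = 0.00791, adjusted p = 0.127) and Spearman's rho = 0.76 (permutation p = 0.0368, adjusted p = 0.206) over the 8 arrays, and r = 0.71 without the 2 arrays farthest from the median of Gclc. The most opposed pair was Hmox1 and Gclm, with r = -0.81 (permutation p = 0.0136, adjusted p = 0.127) and rho = -0.81 (permutation p = 0.0218, adjusted p = 0.152), and r = -0.41 without the 2 arrays farthest from the median of Hmox1. No pair had an adjusted p under 0.05 over the 28 pairs. The arrays of a group share their treatment, so these are descriptions of the 8 arrays.

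Genes with the most similar profile over the 8 arrays were, for Nqo1, Zfp41 (r = 0.97), Cog7 and Optc (both 0.96), and 66 genes of 21587 exceeded 0.9. For Hmox1 they were Fam83e (r = 1.00), Nt5dc1 (0.98) and Slc27a3 (0.97), with 68 genes over 0.9. For Srxn1 they were Ydjc, Mavs and Smpdl3b (each 0.99), with 564 genes over 0.9. For Gpx2, whose range is smallest, they were BB166591 (0.94), Nfkbia (0.92) and a probe without a gene name (0.91), and only 4 genes exceeded 0.9. None of the 10 genes was among the 3 nearest of these 4. With 21587 genes and 8 arrays, high values are plentiful, and these are descriptions.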

How the data were processed

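Expression was measured on 8 one-colour Agilent arrays, 4 on each of 2 slides. Replicate 1 of every group lies on slide 1 and replicate 2 on slide 2. Per the file headers, the authors used Agilent Feature Extraction 9.5.3.1 to read the arrays. The deposited processed signal is an intensity on a linear scale after background subtraction. No source used here gives their scaling between arrays. The deposited series matrix holds the same linear intensity values.

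From these, log2 signals were scaled to each array's 75th percentile and floored at -6.74. Control spots (1377) and those marked as outliers were dropped, and spots of a probe were averaged. Probes well above background on both arrays of some group were kept, which gave 27469 probes and 21806 genes, each represented by its brightest probe. Names came from a RefSeq table of GRCm38.p6 by accession (28330 probes) or symbol (2204), or else from the array files (8895). Group means were fitted to all 8 arrays with limma 3.58.1 in R 4.3.3, with Benjamini-Hochberg adjustment and a threshold of 0.05. The scripts were tested on simulated data. Promoter sequences are RefSeq's.

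The alternatives were normexp (offset 50), quantile normalization, the series matrix, 2 other filters, the mean of a gene's probes, each pair of groups fitted alone, the slide as a block, trend and robust moderation, outlier-marked spots kept, leaving out the 3 arrays with a high antrum median, and leaving out each array. The genes, lists and named genes were chosen with earlier results of these data known. Named genes were the 10 members and, per list and comparison, up to 3 that passed or else the one of smallest p. Differences between the 2 replicates of a group correlated between groups from -0.52 to 0.54. Antrum transcripts differ between replicates too, so these values cannot show whether same-numbered samples were paired. The replicate number is the slide.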

Additional observations from a re-analysis of the deposited data

How the results depend on the processing

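None of the 9 measured genes of the NRF2 set passed in any comparison under any alternative that gave a value. Of 19 alternatives, 18 applied to the mean, and 13 to 16 gave a value for Nfe2l2. Of the 45 values, 26 kept their sign in all that were run. The 19 that changed sign in some setting were at most 0.16 in size. Outside the leave-one-out fits, Nfe2l2 in FGF1 against 8 Gy saline turned to 0.028 with the replicate block. Gpx2 in FGF1/CPP-C against 8 Gy saline turned to -0.0024 (normexp), -0.060 (quantile), -0.038 (series matrix) and -0.023 (without the 3 arrays with a high antrum median), and for the mean of the irradiated groups to -0.012, -0.0035, -0.030 and -0.14. Without those 3 arrays Txnrd1 turned to -0.045 in FGF1/CPP-C against 8 Gy saline and to -0.032 for the mean, and Srxn1 to -0.057 in FGF1/CPP-C against FGF1. The cause was not tested.

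Leaving out 1 array at a time, the values that changed sign ranged as follows. In 8 Gy saline against 0 Gy saline these were Gclc -0.095 to 0.19, Srxn1 -0.25 to 0.30, Nqo1 -0.065 to 0.0028, Gpx2 -0.18 to 0.082, Gsr -0.16 to 0.078, Txnrd1 -0.25 to 0.10 and Gclm -0.33 to 0.023. In FGF1 against 8 Gy saline they were Hmox1 -0.085 to 0.29, Gclm -0.097 to 0.25 and Srxn1 -0.12 to 0.43. In FGF1/CPP-C against 8 Gy saline they were Gclc -0.21 to 0.075, Gpx2 -0.023 to 0.072 and Txnrd1 -0.045 to 0.30, and against FGF1 Srxn1 -0.057 to 0.37. For the mean they were Gpx2 -0.13 to 0.13, Txnrd1 -0.11 to 0.24, Gclm -0.096 to 0.033 and Gsr -0.15 to 0.075. A lone array left in a group was assumed to vary like the others.

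Counts over all genes moved more. In 8 Gy saline against 0 Gy saline 92 genes passed, but 37 with the replicate block (33 of them shared), 42 without a filter, 0 with the 2 groups alone, 143 with trend and robust moderation and 0 without the 3 arrays with a high antrum median. With 1 array left out the count was 0 to 41, the 0 without either 0 Gy array. For the mean 522 passed, but 244 with the replicate block, 0 without the 3 arrays and 0 to 652 with 1 array left out. In FGF1/CPP-C against 8 Gy saline 2 passed, but 4 (normexp and mean of probes), 7 (quantile), 5 (no filter), 1 (well above background on all arrays), 0 (series matrix and without the 3 arrays) and 2 to 7 with 1 left out. In FGF1/CPP-C against FGF1 2 passed, but 10 (normexp), 14 (quantile), 7 (mean of probes), 8 (trend), 1 (all arrays above background, and groups alone), 0 (series matrix and without the 3 arrays) and 2 to 5 with 1 left out. The block changed no call of a named gene other than those of Sesn2 and Mdm2 in 8 Gy saline. The number of arrays limits the precision.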

Other observations

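The mean of both growth factor groups was compared with 8 Gy saline after the pattern of Nqo1 had been seen, so its values are descriptions. Nqo1 was 0.44 ± 0.13 log2 units lower there. Among the glutathione transferases Gsta3 was 1.26 ± 0.23 lower, Gsta4 0.79 ± 0.16 lower and Gsta2 0.56 ± 0.17 lower. These alpha-class enzymes conjugate lipid peroxidation products, and the 3 were chosen after their values were seen. The adipocyte marker median was lower there too, at -2.79 and -3.71 in 8 Gy saline and -6.48 to -6.08 on the 4 growth factor arrays. On those 4 arrays only 2 or 3 of the 6 markers were well above background. Of other cell types, 3 of 9 macrophage markers and 1 enterocyte marker were higher on all growth factor than on all saline arrays. In smooth muscle, 2 of 6 markers were lower. The part of these transcripts in these values was not tested. Limma called 1 gene of 21782 in this comparison, and none of the NRF2 set or of these transferases passed (limma, adjusted p = 0.692 for Gsta3 and 0.764 for Gsta4).

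Cbr3 and Akr1b8, also picked out after their values were seen, were high on the arrays with a high antrum median. Cbr3, a carbonyl reductase, read 2.25 on the second 8 Gy saline array, 1.57 on the first 0 Gy saline array and 1.21 on the first FGF1 array, which are the 3 with high antrum markers, and -1.07 to 0.20 on the other 5. Akr1b8, an aldo-keto reductase, read 3.20, 2.97 and 2.67 on those 3 arrays and 0.76 to 2.44 on the others. Nqo1 was 0.99, 1.01 and 0.63 on the same 3 arrays and 0.17 to 0.96 on the others, and overlapped between them. The part of the antrum transcripts in these values was not tested.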
